A study of Mus musculus with 2 samples.

Results

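The cadherins and non-clustered protocadherins were taken as every gene whose symbol was Cdh followed by digits alone, or Pcdh followed by digits with an optional x, in the feature lists of both count matrices. The rule found 35 of 32285 features, 23 Cdh and 12 Pcdh genes. Of these, 29 had at least 50 UMIs (unique molecular identifiers, 1 per counted RNA molecule) over both libraries and are described by cell class: 19 Cdh and 10 Pcdh genes.

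Nuclei came from the spinal cord of iNeuroD1GFP mice (n = 3, labelled male, 8 weeks old) that received a spinal cord injury on postnatal day 60 and then TAM (100 mg/kg/day, days 5 to 8 after injury). Each cord was cut at day 10 into an injury core and a distal region, giving 1 single-nucleus RNA-seq library per region. Both libraries therefore share genotype, injury, TAM and time, and differ by region alone as labelled. The promoter that drives NeuroD1 and the cells it acts in are not given in the sources used here, and no uninjured or TAM-free cord was analysed here.

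Cadherins are membrane proteins whose repeated extracellular domains bind calcium and join neighbouring cells, mostly like to like. Type I and type II classical cadherins hold beta-catenin and p120-catenin on their cytoplasmic tails, and alpha-catenin links that complex to actin. The delta protocadherins are relatives that do not hold beta-catenin. In the developing cord, combinations of type II cadherins sort motor neurons into pools.

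The core library held 16362 barcodes and 30469263 UMIs, the distal library 7452 barcodes and 19049572 UMIs, with 38 barcode sequences in both. Clusters named from marker lists gave 8696 core and 1860 distal neurons, 11 and 1816 oligodendrocytes, 2 and 249 oligodendrocyte progenitors (OPCs), 41 and 484 astrocytes, 1 and 183 myeloid nuclei, 106 and 366 fibroblasts, and 57 and 88 endothelial nuclei. Another 6269 core and 51 distal barcodes varied from barcode to barcode little more than counting allows and were set apart as background-like. Neuron markers summed to 22580 CPM (a gene's UMIs scaled by all UMIs of the class) in core fibroblasts and 9695 CPM in distal ones, against 31330 and 23660 CPM in neurons, so neuronal RNA was counted in barcodes of other classes, more in the core. Oligodendrocyte markers summed to 1475 CPM in distal neurons and 289 CPM in core neurons. The distal library did not match its sex label: Xist, the RNA that coats an inactive X chromosome, had 14776 UMIs in 4256 distal nuclei and 16 UMIs in 15 core nuclei. RNA of the Y-linked genes Ddx3y, Uty, Kdm5d and Eif2s3y was present in both, with 8245 core and 3705 distal UMIs. Whether the same mice gave both libraries is therefore not certain, and in every ratio of core to distal the region and the mice cannot be told apart. Values without Xist-positive distal nuclei are given for the leading class, for the counts of members past 2-fold and for part of the single levels and ratios, but not for the neuron clusters or the genes that work with cadherins.

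With 1 library per region no test between regions was possible. Intervals are exact 95% intervals for counting error only, and a member counted as higher or lower at a ratio of at least 2 in either direction. In sums over nuclei of a class, fewer cells of a subtype and less RNA per cell cannot be told apart.

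The distal library held 7 classes with at least 50 nuclei, and the members divided mainly among neurons, OPCs and oligodendrocytes. The level was highest in neurons for 9 of 29 members, against 13% of the 16340 features with at least 50 UMIs. It was highest in OPCs for 9, against 9.3% of features, and in oligodendrocytes for 6, against 10.5%. Myeloid nuclei led for 2 members (20.6% of features), fibroblasts for 2 (14.4%), endothelial nuclei for 1 (20%) and astrocytes for 0 (12.2%). The leading class stood above the next one beyond counting error for 17 members: 5 led by neurons, 6 by OPCs, 4 by oligodendrocytes and 1 each by myeloid and endothelial nuclei. Without Xist-positive nuclei 25 of 29 members kept their leading class, the exceptions being Pcdh7, Pcdh8, Pcdh20 and Cdh10.

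**Figure D1:**
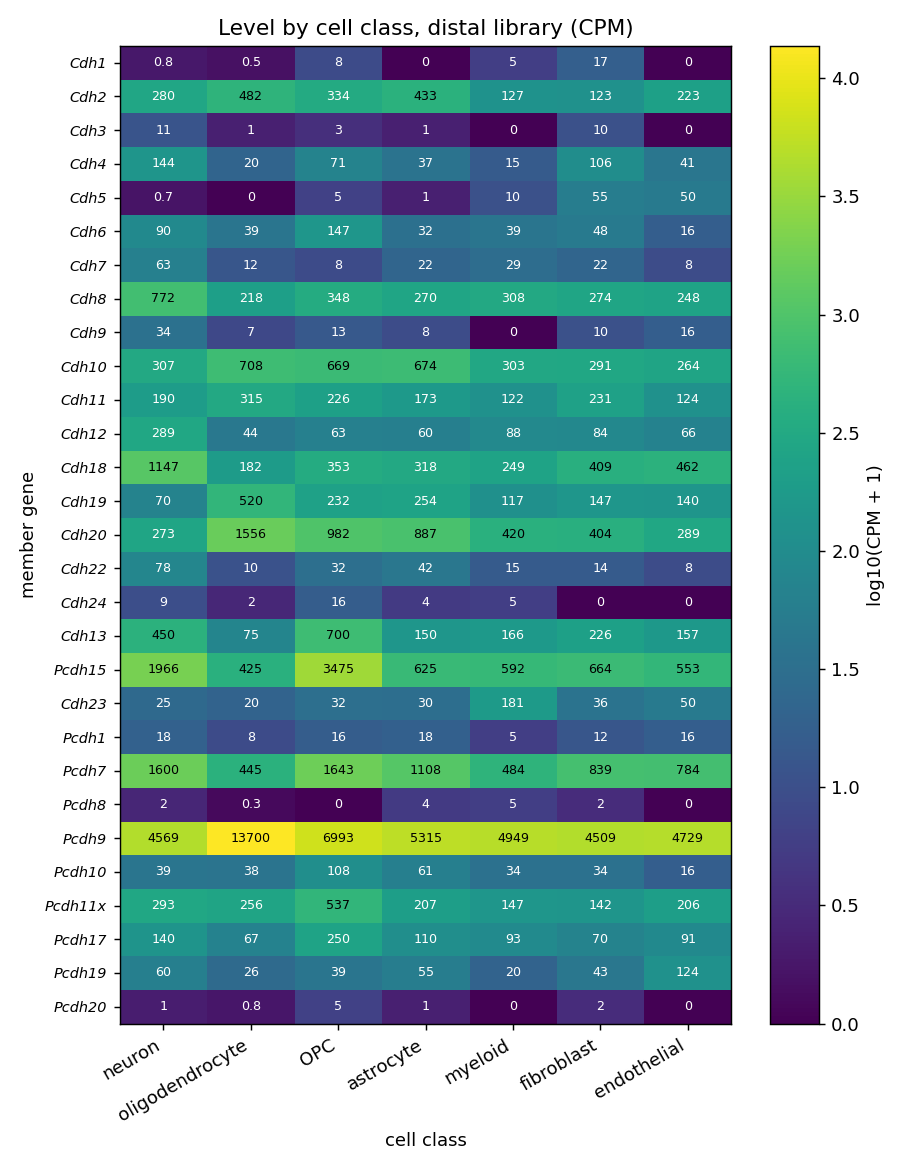
Level of each described member (rows, ordered by subfamily) in the 7 cell classes of the distal library (columns). Numbers are CPM and the colour scale is log10(CPM + 1): Pcdh9, Cdh20 and Cdh19 peak in oligodendrocytes, Pcdh15 and Cdh13 in OPCs, and Cdh8, Cdh12 and Cdh18 in neurons.

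Promoter bases are shown for 1 member led by each of 4 classes, chosen after the values were seen from members with a RefSeq promoter whose leading class stood above the next beyond counting error: Cdh20 (oligodendrocytes), Cdh8 (neurons), Pcdh17 (OPCs) and Cdh23 (myeloid nuclei). Each run is the 250 bases before the RefSeq start in build GRCm38.p6, 5′ to 3′ on the gene's strand, at chr1:104768270-104768519 (plus strand), chr8:99416472-99416721 (minus), chr14:84443313-84443562 (plus) and chr10:60696491-60696740 (minus). Capitals mark matches on either strand to GAGGAA, the core of the binding sequence of the myeloid factor PU.1.
Cdh20: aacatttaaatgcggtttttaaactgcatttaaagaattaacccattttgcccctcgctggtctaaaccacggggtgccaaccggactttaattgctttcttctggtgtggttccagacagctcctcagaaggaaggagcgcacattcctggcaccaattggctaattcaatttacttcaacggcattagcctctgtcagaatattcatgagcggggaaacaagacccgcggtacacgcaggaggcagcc
Cdh8: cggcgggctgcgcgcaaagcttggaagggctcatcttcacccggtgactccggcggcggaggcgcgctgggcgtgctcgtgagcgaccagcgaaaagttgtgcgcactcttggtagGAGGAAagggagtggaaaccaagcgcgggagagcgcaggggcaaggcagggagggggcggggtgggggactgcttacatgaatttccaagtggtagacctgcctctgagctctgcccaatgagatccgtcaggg
Pcdh17: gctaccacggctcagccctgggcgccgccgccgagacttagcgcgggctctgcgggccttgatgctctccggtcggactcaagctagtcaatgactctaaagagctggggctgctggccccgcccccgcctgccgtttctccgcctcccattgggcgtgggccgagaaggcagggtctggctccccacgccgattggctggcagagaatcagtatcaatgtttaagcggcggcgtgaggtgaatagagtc
Cdh23: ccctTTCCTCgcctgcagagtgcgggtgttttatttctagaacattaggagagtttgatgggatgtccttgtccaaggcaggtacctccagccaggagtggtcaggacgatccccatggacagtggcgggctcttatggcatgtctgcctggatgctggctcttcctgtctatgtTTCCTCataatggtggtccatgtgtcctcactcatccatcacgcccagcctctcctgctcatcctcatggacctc
The Cdh23 run holds 2 matches and the Cdh8 run 1. GAGGAA occurred in 8 of the 22 promoters of described members, those of Cdh6, Cdh18, Cdh22 and Pcdh9 among them, and in 22.8% of all 24834 promoters of the same length. Pcdh9 accounts for 2 of the 8: its promoters overlap and hold the same match, which was therefore counted 2 times. CpG pairs numbered 10 in Cdh20, 20 in Cdh8, 21 in Pcdh17 and 5 in Cdh23, around a median of 8 over all promoters and 10.5 over the 22 promoters of 19 described members. The E-box letters CAGATG occurred in 2 of those 22 (13.2% of all promoters), CAGCTG in 2 (12.7%), the SOX-type letters ACAAAG in 3 (15.5%) and TATAAA in 2 (11.5%), each searched on both strands.

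Among the type I classical cadherins, Cdh2 (N-cadherin, the main cadherin of neural tissue) was spread most widely. Its distal level was 482 CPM in oligodendrocytes (95% interval 459 to 504), 433 CPM in astrocytes (387 to 483), 334 CPM in OPCs and 281 CPM in neurons, where the core library gave 291 CPM. The oligodendrocyte and astrocyte values did not differ beyond counting error (ratio 1.11, 0.987 to 1.26), and the lowest class was fibroblasts, at 123 CPM. Cdh4 (R-cadherin) was at 144 CPM in distal neurons (134 to 154), 106 CPM in distal fibroblasts (76.9 to 142) and 20.4 CPM in oligodendrocytes. Cdh3 (P-cadherin) was at 10.7 CPM in distal neurons and 9.62 CPM in distal fibroblasts, values that counting error does not separate. Cdh1 (E-cadherin, the cadherin of epithelia) had only 69 UMIs, 23 core and 46 distal. Its level was 40.5 CPM in core fibroblasts (13.2 to 94.5, 5 UMIs) and 16.8 CPM in distal ones (6.77 to 34.7, 7 UMIs), against 0.137 CPM in core neurons and 0.833 CPM in distal neurons. The next distal class was OPCs, at 7.9 CPM from 3 UMIs, which counting error does not separate from fibroblasts (ratio 2.13, 0.487 to 12.8). Within fibroblasts Cdh1 was at 52.8 CPM (19.4 to 115) in the sub-cluster led by Slc47a1 and had 0 UMIs in the sub-cluster led by Ranbp3l and Slc6a20a, which allows up to 31.1 CPM at 3 counts.

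Several type II cadherin genes share chromosomes 1 and 15, and those of 1 chromosome did not share a leading class. On chromosome 1, Cdh20 and Cdh19 peaked in oligodendrocytes and Cdh7 in neurons. Cdh20 was at 1556 CPM in distal oligodendrocytes (1516 to 1596), 982 CPM in OPCs (885 to 1087), 887 CPM in astrocytes (821 to 958) and 273 CPM in neurons. The order oligodendrocyte above OPC held beyond counting error (ratio 1.58, 1.43 to 1.76), and OPCs and astrocytes overlapped. Cdh19, known for its expression in glia of the peripheral nerve, was at 520 CPM in distal oligodendrocytes (497 to 544), 254 CPM in astrocytes (219 to 293), 232 CPM in OPCs (186 to 285) and 70.3 CPM in neurons. Left without Xist-positive nuclei, oligodendrocytes held 1549 CPM of Cdh20 and 535 CPM of Cdh19. Cdh7 was at 63.2 CPM in distal neurons and 29.3 CPM in myeloid nuclei, which overlapped, and at 11.8 CPM in oligodendrocytes.

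On chromosome 15, Cdh12 and Cdh18 were highest in neurons beyond counting error. Cdh18 was at 1147 CPM in distal neurons (1120 to 1175) and 1221 CPM in core neurons (1206 to 1235), and its next distal class was endothelial nuclei at 462 CPM. Cdh12 was at 289 CPM in distal neurons (275 to 303), 336 CPM in core neurons and 88 CPM in distal myeloid nuclei. Cdh9 was at 34.2 CPM in distal neurons and 16.5 CPM in endothelial nuclei, which counting error does not separate. Cdh6 was highest in OPCs, at 147 CPM against 90.2 CPM in neurons (ratio 1.64, 1.22 to 2.16). Cdh10 was level among glia, at 708 CPM in oligodendrocytes, 674 CPM in astrocytes and 669 CPM in OPCs, and lower in neurons at 307 CPM.

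The other type II members followed either neurons or support cells. Cdh8, which marks subsets of spinal and cortical neurons, was at 772 CPM in distal neurons (750 to 794) and 507 CPM in core neurons (498 to 516). Its next distal class was OPCs, at 348 CPM. Cdh22 was at 78.2 CPM in distal neurons and 41.9 CPM in astrocytes (ratio 1.86, 1.3 to 2.78). Cdh11 (OB-cadherin, a cadherin of mesenchyme) was at 315 CPM in distal oligodendrocytes (297 to 333) and 231 CPM in distal fibroblasts (187 to 282), with 186 CPM in core fibroblasts. Cdh24 was at or under 15.8 CPM in every distal class of at least 50 nuclei. Cdh5 (VE-cadherin, the cadherin of endothelial junctions) was at 98.4 CPM in core endothelial nuclei (47.2 to 181) and 49.5 CPM in distal ones (18.2 to 108). It was also counted in fibroblasts, at 32.4 CPM in the core and 55.3 CPM in the distal library (35.1 to 83). The distal endothelial and fibroblast values overlapped. Counting error did not separate the core values either (ratio 3.04, 0.876 to 13.3), which rest on 10 and 4 UMIs. Neurons held 0.32 CPM of Cdh5 in the core and 0.667 CPM in the distal library, and 1816 distal oligodendrocytes held 0 UMIs, which allows up to 0.804 CPM at 3 counts. Cdh5 was counted in all 4 fibroblast sub-clusters, from 27 to 83 CPM. The lowest value rests on 3 UMIs, no more than 0 UMIs would allow, and the highest on 8 UMIs. Endothelial markers summed to 138 CPM in core and 200 CPM in distal fibroblasts, against 8902 and 7625 CPM in endothelial nuclei, and their part in these values was not tested.

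Cdh13 (T-cadherin, held in the membrane by a lipid anchor and lacking a cytoplasmic tail) was at 700 CPM in OPCs (619 to 790), 450 CPM in distal neurons (433 to 467) and 74.5 CPM in oligodendrocytes. The 2 tip link proteins, Cdh23 and Pcdh15, join the stereocilia of hair cells in the inner ear, and here they led in different classes. Cdh23 was at 181 CPM in distal myeloid nuclei (127 to 249, 37 UMIs), against 49.5 CPM in endothelial nuclei and 25.3 CPM in neurons. The myeloid value was 3.65 times the next class (1.53 to 10.6), and 164 CPM without Xist-positive nuclei. Pcdh15 was at 3475 CPM in OPCs (3290 to 3668), 1966 CPM in distal neurons (1931 to 2002) and 425 CPM in oligodendrocytes, so the OPC level exceeded the neuron level by 1.77 (1.67 to 1.87).

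Among the delta protocadherins, Pcdh9 was at 13700 CPM in distal oligodendrocytes (13580 to 13820), 6993 CPM in OPCs, 5315 CPM in astrocytes and 4569 CPM in neurons. Myeloid, endothelial and fibroblast nuclei lay between 4509 and 4949 CPM, and oligodendrocytes stood above OPCs by 1.96 (1.88 to 2.04). Pcdh7 was at 1643 CPM in OPCs and 1600 CPM in distal neurons, which did not differ beyond counting error (ratio 1.03, 0.945 to 1.11), and at 445 CPM in oligodendrocytes. Pcdh17 was at 250 CPM in OPCs (202 to 306) and 140 CPM in distal neurons, and Pcdh10 at 108 CPM in OPCs (77.5 to 146) and 60.9 CPM in astrocytes. Pcdh1 was at 18.2 CPM in distal neurons and 17.6 CPM in astrocytes. Pcdh8 and Pcdh20 had 87 and 55 UMIs in all, too few to order the classes.

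The X-linked members are Pcdh11x and Pcdh19, the latter known from an epilepsy caused by its loss. Pcdh11x was at 537 CPM in OPCs (466 to 616) and 293 CPM in distal neurons. Without Xist-positive nuclei these values were 462 and 327 CPM. Pcdh19 was at 124 CPM in distal endothelial nuclei (69.3 to 204, 15 UMIs), 60.2 CPM in distal neurons and 55.4 CPM in astrocytes. Core endothelial nuclei gave 128 CPM (68.1 to 219), and distal endothelial nuclei without Xist 140 CPM (70 to 251).

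**Figure D2:**
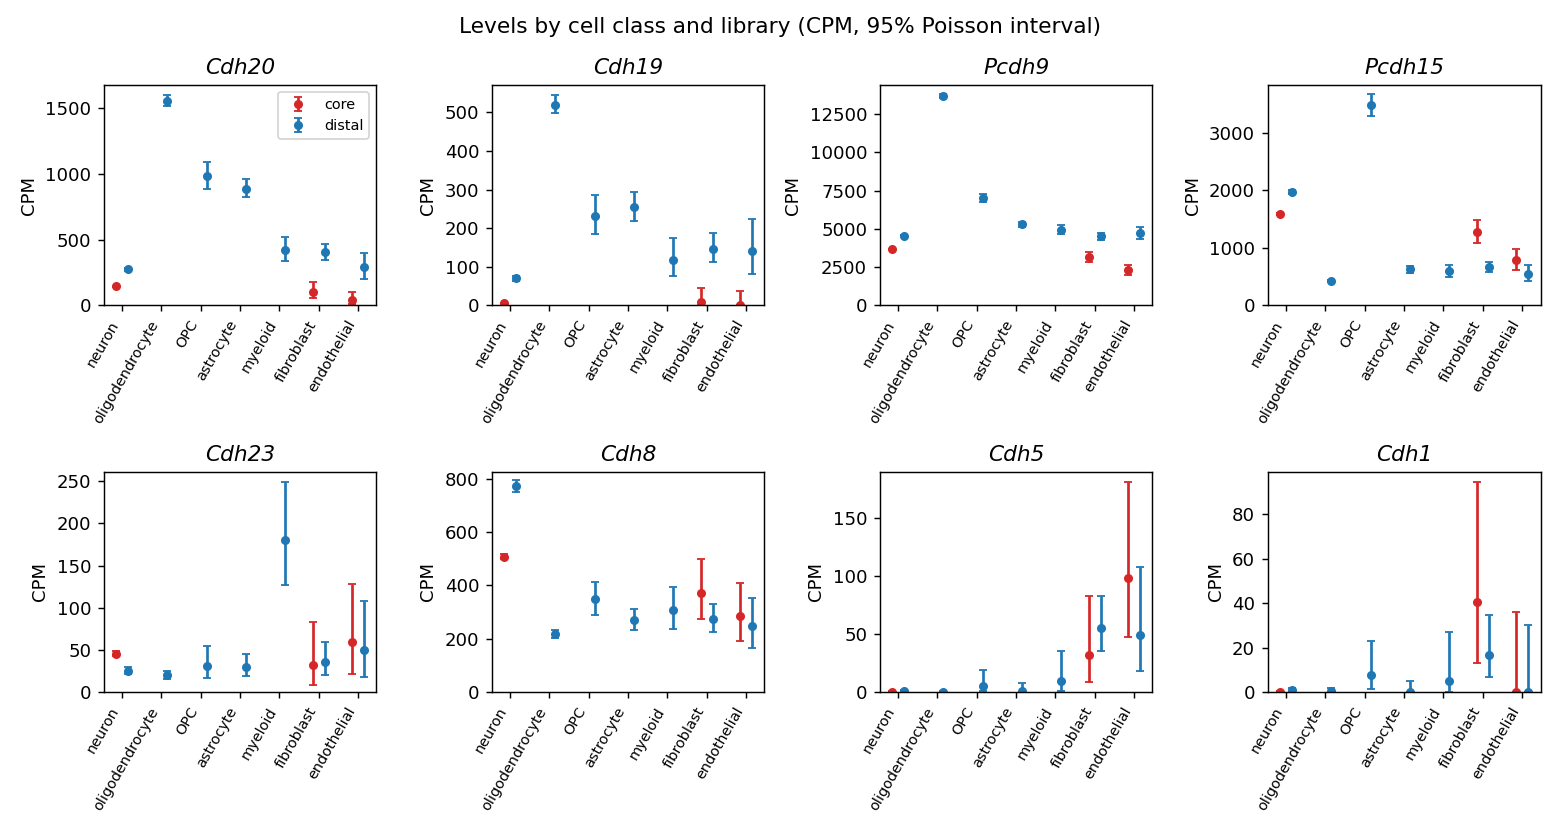
Level in CPM (y axis) of 8 members in each class with at least 50 nuclei (x axis), with red points for the injury core and blue for the distal library; bars are 95% Poisson intervals. Cdh20, Cdh19 and Pcdh9 are highest in distal oligodendrocytes, Cdh23 in distal myeloid nuclei, and Cdh5 in endothelial nuclei and fibroblasts. Cdh1 is highest in fibroblasts, with 0 UMIs in endothelial nuclei. Counting error does not separate its distal fibroblast level from that of OPCs, at 7.9 CPM.

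The 6 members under 50 UMIs were Pcdh18 with 49, Cdh15 (M-cadherin, of muscle) with 35, Cdh26 with 11, Cdh17 with 4, Pcdh12 with 2 and Cdh16 with 1. The members just above the limit were Pcdh20 with 55, Cdh1 with 69 and Cdh5 with 73. The described members spanned a median of 153.5 kb of genome, the 6 under the limit 20.96 kb, and all features with at least 50 UMIs 25.88 kb, and the counts were not divided by length.

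In neurons, 26 members had at least 50 UMIs over both libraries for the comparison of injury core with distal region. One was at least 2-fold higher in the core and 1 at least 2-fold lower, against 1.17% and 6.4% of the 14239 features compared (7.57% in either direction). The median ratio of the members was 1.05 and that of all features 0.97. Cdh19 was at 6.22 CPM in core neurons (136 UMIs) and 70.3 CPM in distal neurons (422 UMIs), a ratio of 0.0884 (0.0723 to 0.108). It was lower in the core in 12 of the 12 neuron clusters with at least 20 nuclei in both libraries. Its level in the core stood at 10.8 CPM in background-like barcodes and 8.1 CPM in fibroblasts. Oligodendrocytes, the class where Cdh19 was highest, made up 1816 distal and 11 core nuclei, and oligodendrocyte marker RNA in neurons was also higher in the distal library, as given above. The part of that RNA in the Cdh19 ratio was not tested. Cdh20 is another type II cadherin that was highest in oligodendrocytes. It was at 145 CPM in core and 273 CPM in distal neurons, a ratio of 0.531 (0.5 to 0.564). It was also lower in all 12 clusters, and its ratio fell to 0.484 when weighted within clusters. Cdh10 and Cdh11, type II members also highest in distal oligodendrocytes, had ratios of 0.746 and 0.826 in neurons.

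Cdh4 was at 308 CPM in core neurons (6729 UMIs) and 144 CPM in distal neurons (863 UMIs), a ratio of 2.14 (1.99 to 2.3). It was higher in the core in 12 of 12 clusters, by 1.1 to 6.94 times, but the call was lost in 3 settings. The ratio was 1.92 when weighted within clusters, 1.92 without Xist-positive distal nuclei (1.71 to 2.15) and 1.99 with each nucleus classed by itself. The regions also drew on different neurons: cluster 1, with Zfhx3 among its leading genes, held 4372 core and 74 distal nuclei, cluster 15, led by Pdgfd and Tns1, held 44 and 411, and cluster 18, led by Fer1l6 and Nmur2 and with Xist among its leading genes, held 3 and 210, so that it stands for the distal library alone.

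No other member passed 2-fold in neurons. Cdh23 was at 45.5 CPM in the core and 25.3 CPM in the distal library (ratio 1.8, 1.51 to 2.15). Cdh13 was at 606 and 450 CPM (1.35, 1.29 to 1.4). Cdh8 was lower in the core at a ratio of 0.657 (0.635 to 0.68), or 0.766 within clusters, and was lower in 10 of 12 clusters. Cdh10 (0.746, 0.707 to 0.787) and Pcdh9 (0.803, 0.792 to 0.814) were lower in the core in every one of the 12 clusters. The ratios of Cdh9 (1.02), Cdh2 (1.04), Cdh6 (0.953), Cdh18 (1.06), Cdh7 (1.07), Pcdh1 (1.07), Cdh22 (1.1), Cdh24 (1.1), Pcdh8 (1.1), Pcdh10 (1.15), Cdh12 (1.17), Pcdh7 (0.946) and Pcdh17 (0.935) lay between 0.935 and 1.17. Cdh11 was at 0.826 and Pcdh15 at 0.811. Cdh3 was at 1.33 (1.01 to 1.77), but at 0.779 without Xist-positive nuclei. Of the X-linked members Pcdh11x was at 0.937 (0.889 to 0.989), or 0.84 (0.775 to 0.911) without Xist-positive nuclei, and Pcdh19 at 1.22 (1.09 to 1.38), or 1.29 (1.07 to 1.57).

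**Figure D3:**
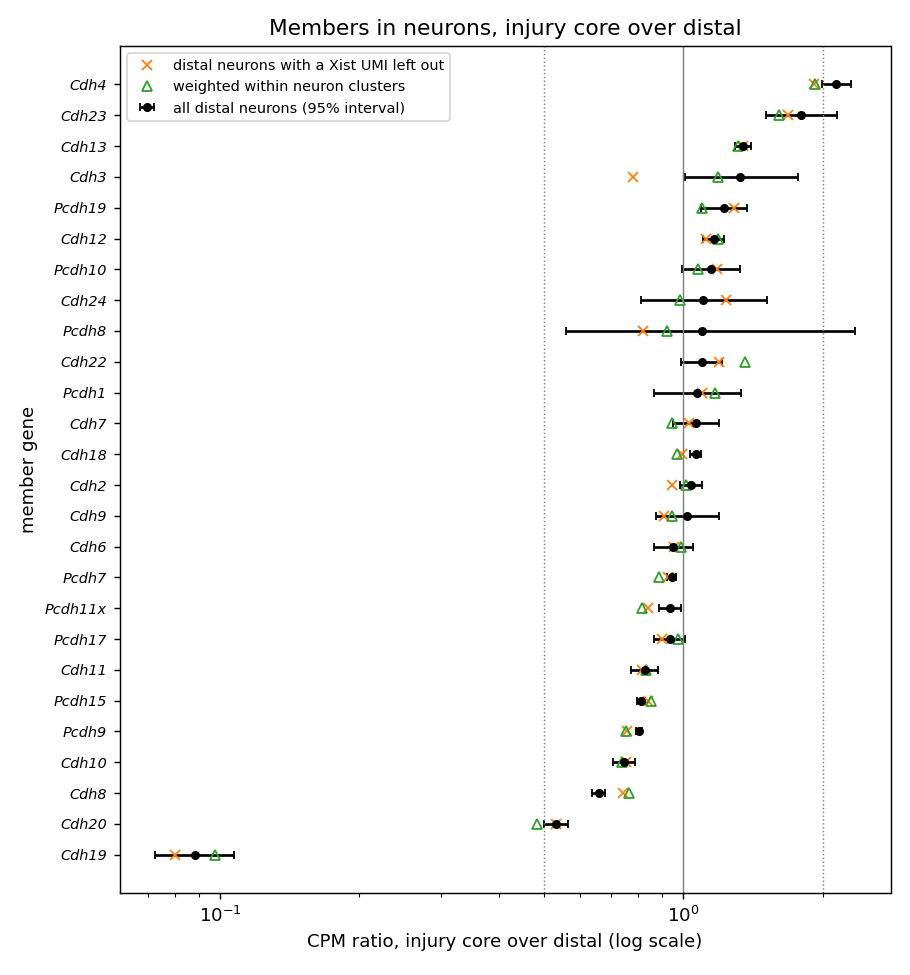
Ratio of CPM in core neurons to CPM in distal neurons (x axis, log scale) for the 26 members compared (y axis). Black points with bars are the ratios with 95% intervals, orange crosses leave out Xist-positive distal nuclei, green triangles are weighted within neuron clusters, and dotted lines mark 2-fold: Cdh19 lies far below the lower line and Cdh4 near the upper one.

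Fibroblasts, which form meninges and scar, allowed 14 members to be compared from 123452 core and 415876 distal UMIs. Of these, 2 were at least 2-fold higher in the core and 2 lower, against 8.46% and 10.1% of 2399 features. The higher ones were Cdh12, at 219 CPM in the core and 84.2 CPM in the distal library (ratio 2.6, 1.51 to 4.42), and Cdh18, at 948 and 409 CPM (2.32, 1.82 to 2.95). Both were highest in neurons among the distal classes, and neuron markers in fibroblasts were higher in the core too, 22580 against 9695 CPM. The lower ones were Cdh19, at 8.1 and 147 CPM from 1 and 61 UMIs (0.0552, 0.00138 to 0.32), and Cdh20, at 105 and 404 CPM (0.261, 0.136 to 0.458). Both were highest in oligodendrocytes, whose markers summed to 575 CPM in core and 3311 CPM in distal fibroblasts. How much of the 4 ratios comes from RNA of other cells was not tested. Cdh11, the member of mesenchyme, did not differ beyond counting error (0.807, 0.489 to 1.28), nor did Cdh13 (1.25, 0.826 to 1.87). Cdh2 was at 243 and 123 CPM (1.98, 1.22 to 3.17), and passed 2-fold at Leiden resolution 0.5 (2.02) and with at least 500 genes per nucleus (2.38). Without Xist-positive nuclei 10 members could be compared and 3 passed 2-fold (Cdh18, Pcdh15 and Cdh20), against 20.7% of all features.

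Inhibitory neurons were taken as neurons with a UMI of Gad1, Gad2, Slc32a1 or Slc6a5 and none of Slc17a6, Slc17a7 or Slc17a8, and excitatory neurons as the reverse. This gave 2186 inhibitory and 743 excitatory nuclei in the core and 401 and 228 in the distal library, while 63.2% of core and 63.9% of distal neurons had no UMI of either list. In the core, 1 of 24 members was at least 2-fold higher in inhibitory neurons and 0 lower, against 0.839% and 0.373% of 10733 features. That member was Cdh3, at 22.2 CPM in inhibitory (151 UMIs) and 5.62 CPM in excitatory neurons (12 UMIs), a ratio of 3.95 (2.2 to 7.82). The distal library gave 20.6 and 3.41 CPM from 36 and 3 UMIs, a ratio of 6.05 (1.91 to 30.7), under the 50 UMI limit. In the distal library 1 of 22 members was at least 2-fold lower and 0 higher, against 0.955% and 1.45% of 6910 features (2.4% in either direction). That member was Cdh22, at 40.1 CPM in inhibitory and 102 CPM in excitatory neurons (0.392, 0.283 to 0.542). In the core it was at 72.7 and 95.6 CPM (0.761, 0.645 to 0.9), and the difference between the regions was not tested. Without Xist-positive nuclei the Cdh22 ratio was 0.179 (0.0918 to 0.334), from too few UMIs to count, and with at least 2 transmitter UMIs per nucleus it was 0.441 (0.238 to 0.841), again under the limit.

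Several members leaned the same way in both libraries by less than 2-fold. Pcdh11x was higher in inhibitory neurons, by 1.26 in the core (1.14 to 1.39) and 1.53 in the distal library (1.31 to 1.8), or 2.17 (1.62 to 2.96) without Xist-positive nuclei. Cdh20 was also higher, by 1.48 (1.29 to 1.7) and 1.22 (1.04 to 1.43). Cdh13 was lower in inhibitory neurons, at 0.829 (0.78 to 0.88) and 0.88 (0.781 to 0.993), as were Cdh8 (0.882 and 0.854), Cdh11 (0.833 and 0.81) and Pcdh15 (0.881 and 0.843). Pcdh19 was at 1.15 in the core (0.956 to 1.39) and 1.75 in the distal library (1.23 to 2.54). Pcdh17 was at 0.793 in the core (0.698 to 0.904) and 1.1 in the distal library (0.875 to 1.38).

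**Figure D4:**
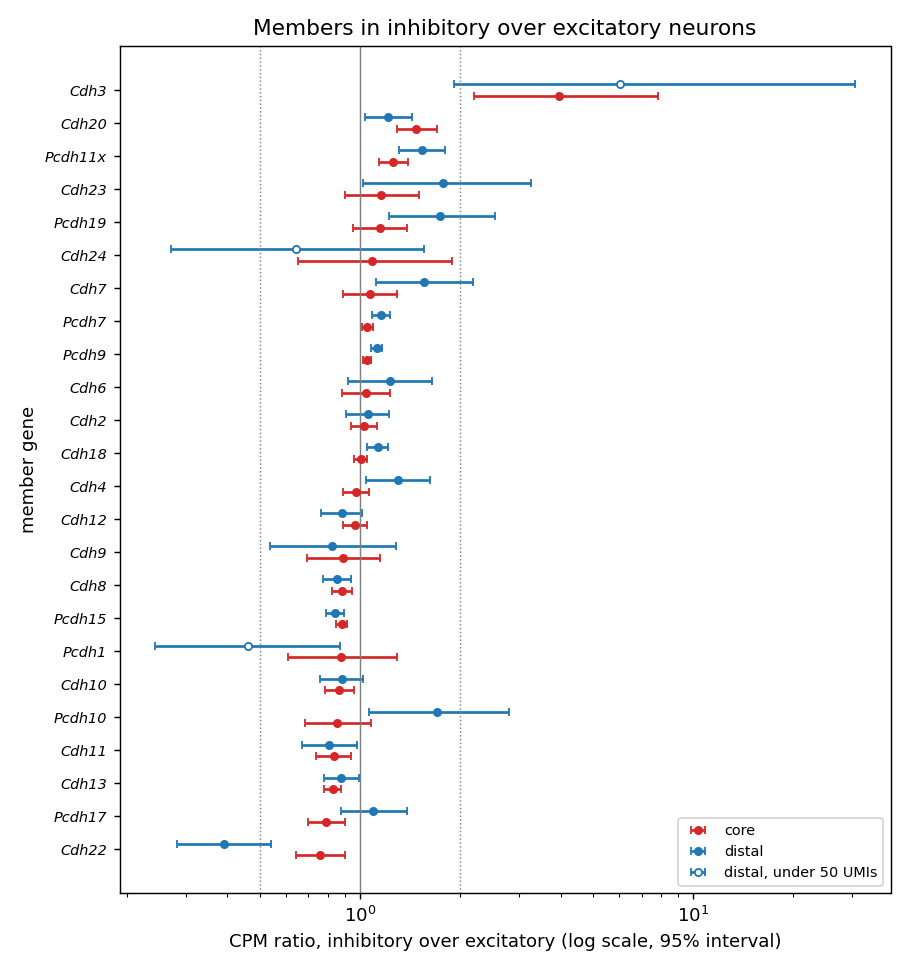
Ratio of CPM in inhibitory to CPM in excitatory neurons (x axis, log scale, 95% intervals) for the 24 members compared in the core (y axis), red for the core and blue for the distal library; open points rest on fewer than 50 UMIs and dotted lines mark 2-fold. Cdh3 lies above 2 in both libraries, and Cdh22 below 0.5 in the distal one alone.

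Neurons fell into 14 clusters, made without the members among the clustering genes, and the members differed in how far they singled clusters out. Cdh3 was at 153 CPM (127 to 182) in cluster 17, led by Trabd2b, Tll1 and Sema3e and with 183 inhibitory and 8 excitatory nuclei, and at 34.7 CPM in cluster 6, the next. Its median over the 14 clusters was 6.2 CPM. The same cluster gave 145 CPM in the core and 190 CPM in the distal library. Cdh9 was highest in cluster 20, led by Plch1 and Qrfpr, at 99.4 CPM (70.3 to 136), as were Cdh13 at 1329 CPM (1216 to 1450) and Cdh23 at 113 CPM (81.4 to 152). The median cluster held 25.4 CPM of Cdh9, 563 CPM of Cdh13 and 32 CPM of Cdh23.

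Ranks over pooled nuclei can follow the share of each library in a cluster, so the order is also given within each library, for clusters with at least 20 of its nuclei. Pcdh15 was highest in cluster 4, led by Myo5b, in both, at 3003 CPM in the core and 5086 CPM in the distal library. Cdh13 was likewise highest in cluster 20 in both, at 1192 and 1922 CPM. Cdh23 in cluster 20 (113 and 111 CPM) was close to cluster 12 (108 CPM in the core), and the distal Cdh9 and Cdh23 values there rest on 4 and 8 UMIs.

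Cdh18 and Pcdh11x were highest in cluster 1 in each library, at 2405 and 472 CPM in the distal one and 1479 and 315 CPM in the core, although cluster 15 led over pooled nuclei. The core Pcdh11x level in cluster 23 was close behind, at 314 CPM. Pcdh7 in cluster 23, led by Pkd1l2 and Pkd2l1, was at 4113 CPM in the distal library and 1513 CPM in the core, where cluster 7 led at 2403 CPM. Cdh8 was at 1824 CPM in distal and 1303 CPM in core nuclei of cluster 14, led by Gucy2d, the highest cluster in each, and at 1586 CPM in distal nuclei of cluster 18. Cdh10 was highest in cluster 9, led by Nmu and Mylk, in the core (476 CPM) and in cluster 23 in the distal library (735 CPM, against 601 CPM in cluster 9). In the distal library Cdh4 and Cdh12 were highest in cluster 12, at 330 and 623 CPM, from only 27 and 51 UMIs in 22 nuclei. In the core both were highest in cluster 15, at 527 and 578 CPM from 44 nuclei. Cdh22 was highest in cluster 7 in the distal library, at 163 CPM, and in cluster 15 in the core, at 227 CPM, against 183 CPM in cluster 7. Among distal values, cluster 18 was lowest for Cdh4 (21.7 CPM), Cdh18 (258 CPM) and Pcdh7 (350 CPM) and highest for Pcdh1 (51.6 CPM). Over pooled nuclei Cdh2 ranged from 186 CPM in cluster 20 to 328 CPM in cluster 12, around a median of 291 CPM. Its highest cluster was 1.13 times the median.

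**Figure D5:**
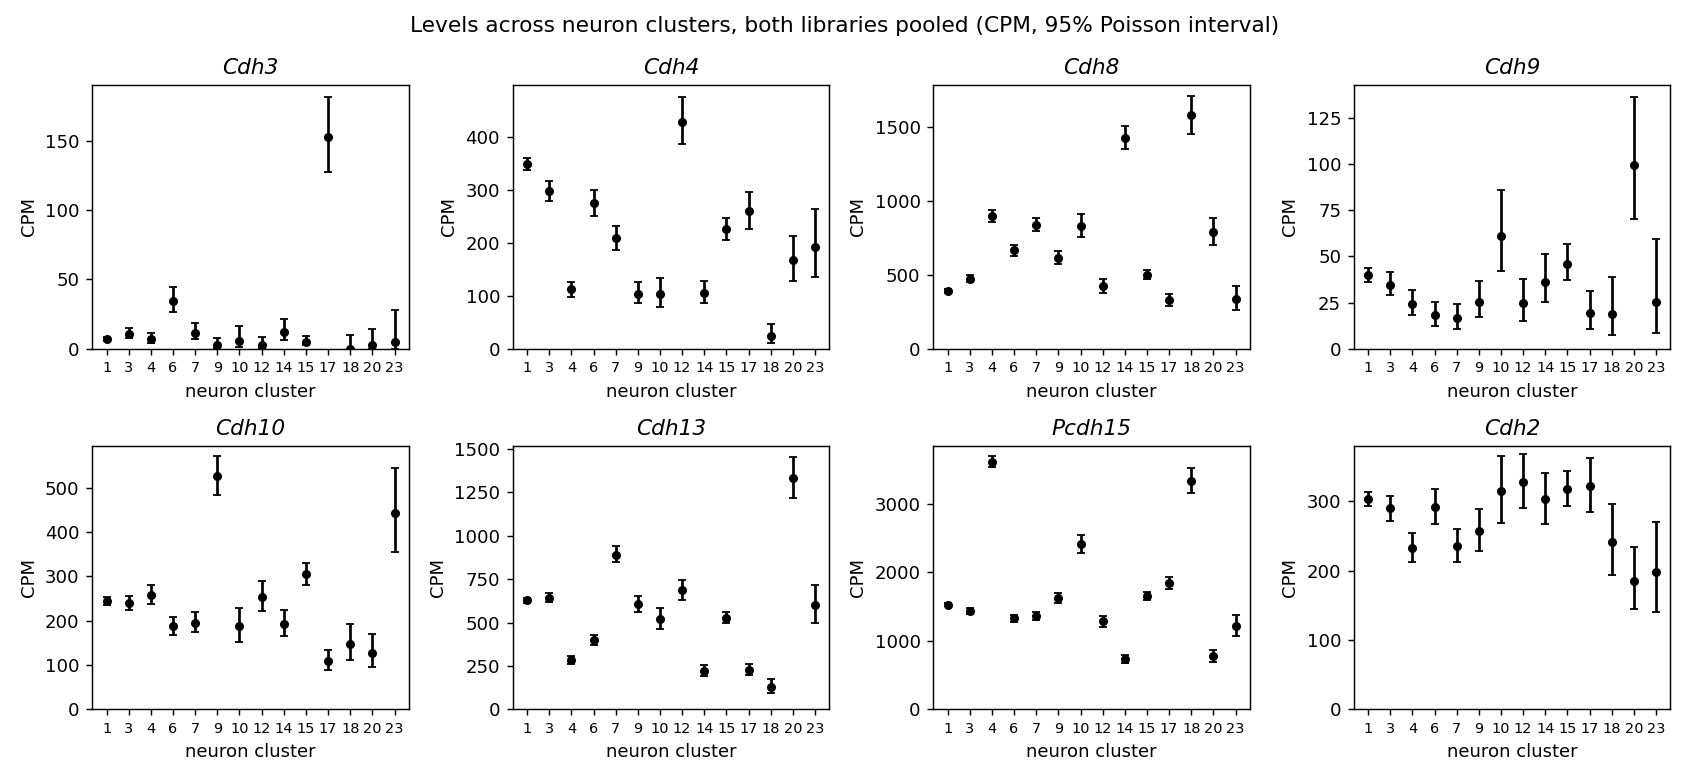
Level in CPM (y axis) of 8 members in the 14 neuron clusters (x axis, cluster numbers), both libraries pooled, with 95% Poisson intervals. Cdh3 is at 153 CPM in cluster 17, Cdh13 and Cdh9 are highest in cluster 20, and Cdh10 in cluster 9. Cdh2 ranges from 186 CPM in cluster 20 to 328 CPM in cluster 12.

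Of the genes that work with cadherins, the catenins and linkers were the list with members past 2-fold in neurons: 0 of 11 higher and 2 lower in the core, beside 1.17% and 6.4% of all features. Ctnna3 (alpha-T-catenin) was at 392 CPM in core and 912 CPM in distal neurons (0.43, 0.415 to 0.445), and Ctnna1 (alpha-E-catenin) at 14 and 32.3 CPM (0.433, 0.36 to 0.521). Oligodendrocyte markers in neurons were also lower in the core (289 against 1475 CPM), and their part in both ratios was not tested. The list's median ratio was 0.929. The other cadherin superfamily genes (11 compared), nectins and nectin-like genes (7), processing genes (7) and protocadherin partners (7) had 0 past 2-fold, with medians of 1.2, 1.02, 1.09 and 1.03. In fibroblasts 16 genes of the 5 lists could be compared, 3 of them at least 2-fold higher in the core and 3 lower, beside 8.46% and 10.1% of all features. Clstn2 (a calsyntenin, 3.03, 2.12 to 4.32) and Ctnnd2 (delta-catenin, 2.12, 1.71 to 2.61) had the largest ratios, and Ctnna1 (0.296, 0.0924 to 0.731) and Numb (an endocytic adaptor, 0.433, 0.229 to 0.758) the smallest. In the same fibroblasts neuron markers were higher and oligodendrocyte markers lower in the core, as given above, and their part was not tested. Between inhibitory and excitatory neurons 0 genes of the 5 lists passed 2-fold in either library, with 40 compared in the core and 37 in the distal library.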

How the data were processed

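Single-nucleus 3′ RNA-seq was made from 1 injury core and 1 distal library. The authors deposited 1 matrix of unnormalized UMI counts per library, written by Cell Ranger 7.1.0 per the file headers. The submitters' processing notes also name Seurat and the builds mm10 and GRCh38, without roles. The members and lists were chosen with earlier results of these data known.

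A floor of 300 genes and a ceiling of 5% mitochondrial RNA left 16360 core and 7443 distal barcodes. Values were scaled to 10000 UMIs and log-transformed, and 2000 variable genes (members left out), 40 principal components and 15 neighbours gave Leiden clusters at resolution 1 with scanpy 1.11.5, each clustered again at 0.5. A sub-cluster took the class whose fixed markers had the highest mean relative level. It was kept out under 20 nuclei, with fewer than 3 detected markers, when another class had more markers than its own among the 10 leading genes, when blood or mitochondrial genes led, when a neuron sub-cluster had a second class above 0.5 of its score, or when no own marker was among the 30 leading genes of another class and its score was under 2 times the second. Sub-clusters with a dispersion under 1.4 times counting noise were set apart as background-like. These naming rules were set after seeing the clusters. Scrublet called 0 core and 1489 distal doublets, and its calls were not used: its score served only in an alternative.

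Counts were summed per class and library and divided by the class total (CPM). A gene was compared with at least 50 UMIs over both groups, 50 nuclei per class for a level and 100 per group between regions, and no p-value was computed. Intervals cover counting error only, and UMIs of 1 library are not replicates. Every member was accounted for and each with at least 50 UMIs described, and at most 2 genes per direction and comparison were named from the other lists. Scripts were tested on simulated data. Gene positions came from GENCODE M21, matched by gene ID for 32158 of 32285 features and all 35 members, and promoters from RefSeq (GRCm38.p6), found for 19 of the 29 described members. Alternatives used other resolutions, filters, doublet removal, classing of single nuclei, TMM factors (edgeR 4.0.16) and size factors (DESeq2 1.42.0), and, chosen after seeing the data, removal of Xist-positive distal nuclei, weighting within clusters and a wider neuron class.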

Additional observations from a re-analysis of the deposited data

Results flagged for a closer look

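Sub-clusters kept out of the named classes were searched for members whose interval lay above the upper bound of neurons, oligodendrocytes, OPCs, astrocytes, myeloid nuclei, fibroblasts, endothelial nuclei and every neuron cluster. There were 6 such values, all in the distal library. The small hepatocyte-like and mural classes, of 36 and 25 nuclei, were not part of that search: the Cdh1 value below overlaps both (upper bounds 161 and 127 CPM), and both Cdh11 values overlap the mural class (541 CPM). In a sub-cluster of 37 nuclei with Pmp22, Prx and Dnah12 among its leading genes, Cdh19 was at 1150 CPM (864 to 1509, 53 UMIs) and Cdh11 at 631 CPM (423 to 907, 29 UMIs). In a sub-cluster of 29 nuclei led by Fn1, Prg4 and Msln, beside the fibroblasts, Cdh1 was at 253 CPM (122 to 466, 10 UMIs). In a sub-cluster of 76 nuclei led by Tcf7l2, 9630013A20Rik and Cnksr3, Cdh20 was at 1940 CPM (1750 to 2154) and Cdh11 at 499 CPM (404 to 611). In a sub-cluster of 65 nuclei led by Tmem132cos, C1qtnf7 and Sntb1, Cdh8 was at 2350 CPM (2078 to 2642).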

How the results depend on the processing

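No paired analysis was possible because each region has 1 library. Of 852 member ratios recomputed under the alternatives, 749 stayed inside the reported interval and 103 moved outside it, and no ratio past 2-fold changed direction. The 749 include the ratios under a minimum of 1 UMI, a setting that changes which genes are compared but cannot move a ratio. Without Xist-positive distal nuclei, 1 of 25 members was past 2-fold in neurons (Cdh19), beside 8.78% of all features. Between inhibitory and excitatory distal neurons 2 of 18 were (Pcdh11x and Pcdh19, with Cdh22 under the UMI limit), beside 4% of all features. A minimum of 1 UMI gave 6 of 34 members in neurons (beside 30.6% of all features) and 11 of 29 in fibroblasts (beside 54.2%). Between inhibitory and excitatory neurons it gave 6 of 33 in the core (beside 28.9%) and 9 of 33 in the distal library (beside 31.4%). The distal inhibitory count was also 2 at Leiden resolution 0.5 (Cdh22 and Cdh23, beside 2.57% of all features). It was 2 with at least 500 genes per nucleus (Cdh22 and Cdh3, beside 2.28%). With at least 2 transmitter UMIs it was 2 as well (Cdh7 and Pcdh19, beside 3.5%), with Cdh22 under the UMI limit. Fibroblasts gave 6 of 15 members at Leiden resolution 0.5 (Cdh2 and Pcdh17 added), beside 18.35% of all features. With at least 500 genes they gave 5 of 14 (Cdh2 added), beside 18.79%. The count of members highest in neurons was 8 to 10 in all settings run. Cdh20 passed 2-fold in neurons with at least 500 genes (0.45), without the highest doublet scores (0.484), weighted within clusters (0.484) and with each nucleus classed alone (0.451). TMM and DESeq2 scaling moved the median ratio of all features in neurons to 1.06 and 1.07 and gave 2.33 and 2.36 for Cdh4. Fibroblasts could not be compared at Leiden resolution 2, without the highest doublet scores or with nuclei classed alone, since fewer than 100 core nuclei remained. Oligodendrocytes had 11 core nuclei and could be compared only with each nucleus classed alone, from 318 core and 3143 distal nuclei. There 8 of 23 members passed 2-fold, 6 higher and 2 lower in the core, against 18.8% of all features. They were Cdh7, Cdh19, Cdh22, Cdh9, Cdh10, Cdh12, Cdh18 and Pcdh1. In the main distal classes Cdh19 and Cdh10 were highest in oligodendrocytes and the others of this list in neurons. The part of RNA of other cells in these ratios was not tested. With 1 library per region, the spread between animals is unknown.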

Other observations

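The 6269 background-like core barcodes held members at levels near those of core neurons: Pcdh7 at 1701 CPM against 1513 CPM, Cdh18 at 1428 against 1221 CPM, Cdh8 at 545 against 507 CPM and Cdh2 at 322 against 291 CPM. Cdh4 was lower there, at 190 CPM (180 to 201) against 308 CPM (300 to 315), and Cdh23 was higher, at 75.3 CPM (68.7 to 82.3) against 45.5 CPM (42.8 to 48.5). The distal library also held 36 nuclei in a hepatocyte-like cluster, with 3 UMIs of Cdh1 (55 CPM, 11.3 to 161), and 25 mural nuclei with Cdh2 at 618 CPM (366 to 977).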
